A study of Mus musculus with 185 samples.

Results

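The cells described here were monocyte-derived Langerhans cells (moLCs) of the mouse epidermis, read as single-cell transcriptomes after diphtheria toxin (DT) had been given. They were chosen as the cells whose label marked the donor origin (M) and in which at most 5% of reads fell on genes with names starting with mt-, the mitochondrial genome. This gave 67 moLCs on plate 1 and 36 on plate 2, out of 185 cells in all, of which 79 were labelled as embryonic LCs (E) and 3 were moLCs over the limit, all on plate 2. The host mice were CD45.1 Cd207DTR animals, lethally irradiated and reconstituted with bone marrow of CD45.2 wild-type donors. Cd207DTR mice carry the DT receptor in the Cd207 locus, so DT can remove host cells that express langerin. DT was given at 5 ng per gram, and the epidermis was taken 2 months later. The moLCs therefore carried the wild-type Cd207 allele of the donor and had been in a host that was irradiated and given DT. Age and number of mice were not given in the sources used here, and the labels tie no cell to an animal, so that all moLCs were treated as 1 sample and no test was made.

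Langerhans cells (LCs) are the antigen-presenting cells of the outer skin layer. They take up antigen between the keratinocytes, carry it to the draining lymph nodes and show its peptides to T cells on MHC class II. Embryonic precursors normally seed the LC network before birth, and after severe loss of LCs monocytes from the bone marrow can enter the epidermis and take on an LC phenotype there. Langerin, the product of Cd207, is a C-type lectin of the Birbeck granule, and EpCAM is an adhesion molecule that sets LCs apart from most other dendritic cells.

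The cells were sorted one by one through a gate that was negative for lineage markers such as CD3, Nk1.1, Ly6G and SiglecF and positive for CD11c, CD11b, CD24, MHC class II and CD326. The transcripts of the gated proteins (Itgax, Itgam, Cd24a, the MHC class II genes and Epcam) were thus selected for and are given as a description. The median number of reads per cell was 2955514 on plate 1 and 2934016 on plate 2, and the range over all cells was 606878 to 4450795. The median number of genes with a read was 4026, with 2439 in the lowest cell and 7212 in the highest. Reads were counted without molecular identifiers and include PCR copies. How the ends of a read pair were counted was not given in the sources used here, and 82.7% of the counts above 0 were even, so 1 sequenced fragment may stand as 2 reads in these values. Identical counts were found in 0 pairs of moLCs.

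Levels are given on either of 2 scales. Counts scaled to the same total of reads in each cell (CPM, counts per 1000000 reads) are used for 1 gene across cells. Transcript levels per length (TPM, reads divided by exon length and scaled likewise) are used where genes are set against each other, as the mean and SD over the cells of both plates. A gene was counted as read in a cell with at least 1 read, and intervals on shares of cells are exact Clopper-Pearson intervals at 95% that cover counting error only.

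The cells were first described by marker genes. LCs of donor and of host origin were sorted through the same gate, so LC markers do not test the label of origin. Of 20 LC markers, 13 were read in at least 90% of the moLCs and 17 in at least 50%. These counts were made without removing genes of gated proteins, Epcam among them, which the sort had selected for. Cd207 was read in all cells but 1 (99%, 94.7 to 100%), as was Epcam, and Mfge8, which encodes a bridging protein for phosphatidylserine, in 100% (96.5 to 100%). Cldn1, a tight junction protein, Cst3, a cysteine protease inhibitor, and Ctss, a lysosomal protease, were each read in every cell. Csf1r, the receptor for the LC survival factor IL-34, was read in 96.1% of cells (90.4 to 98.9%), Ltc4s, the leukotriene C4 synthase, in 98.1% and Hpgds, a prostaglandin D synthase, in 97.1%. Among the exceptions was Cdh1, which encodes E-cadherin and was read in 54.4% of cells (44.3 to 64.2%). Il34, which is on the list but encodes the factor and not its receptor, was read in 1 cell (0.971%). Of the 20 markers 2 were never read, Cd1d1 among them. Clec4f, a lectin gene next to Cd207, was read in 28.2% of the moLCs (19.7 to 37.9%), at no more than 267 CPM.

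Markers of other cells that epidermis or a leaky gate could hold were mostly near 0. No keratinocyte marker of 12 was read in 50% of the cells, the highest shares were those of Sbsn (18.4%), Sfn (12.6%) and Krt14 (10.7%), and the sum of the 12 was 0 CPM in the median cell and 686 CPM in the highest. Of 12 T cell and innate lymphoid markers 6 were never read, and only the cytokine receptor gene Il7r passed 50%, in 96.1% of moLCs at a median of 463 CPM. Of 12 monocyte markers 7 were never read, Ly6c2 among them, and Ccr2, the receptor that brings monocytes into tissue, was read in 1.94% of cells. S100a4, a calcium-binding protein, was the exception at 97.1%, with Lyz2, the lysozyme of macrophages, at 41.7% and Cd14 at 19.4%. Among 10 dermal macrophage markers the complement gene C1qa was read in 59.2% of the cells (49.1 to 68.8%), and among 10 markers of dermal type 1 dendritic cells the transcription factor gene Irf8 was read in 61.2% and Xcr1 in 6.80%. Of 8 melanocyte markers 5 were never read, and Mitf was read in 20.4% and Kit in 13.6%. Of 10 mast cell and granulocyte markers 9 were never read, as were 7 of 8 B and NK cell markers and 7 of 8 fibroblast and endothelial markers. Cd207 was at 2000 CPM or more in 100 of the cells, and the other 3, under 1000 CPM, are described further on.

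**Figure D1:**
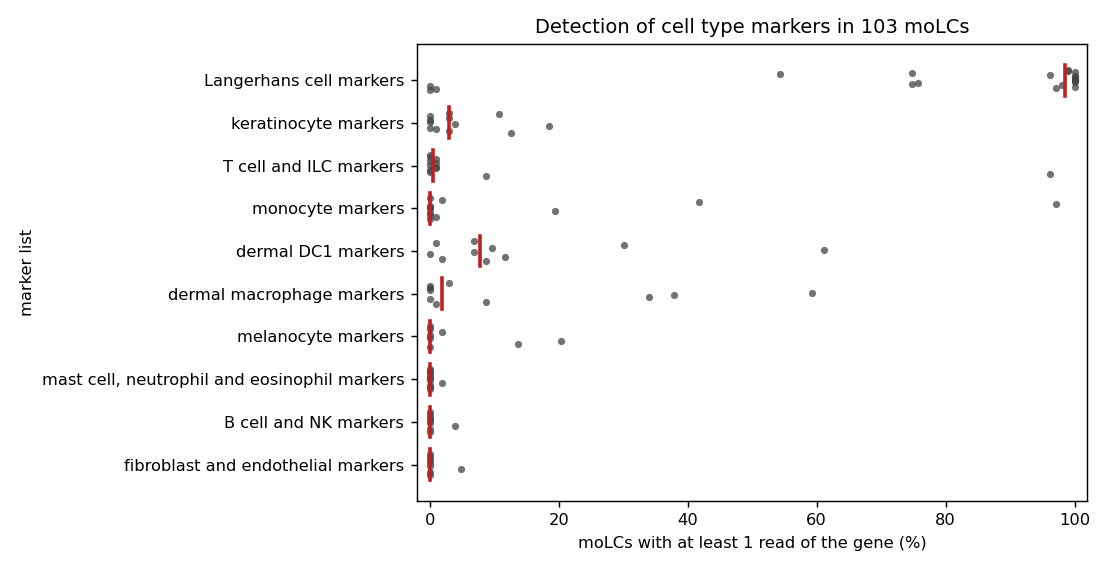
Percent of the moLCs of both plates (horizontal axis) with at least 1 read of each marker, 1 point per gene, for 10 marker lists, with the median of each list as a red line. The median marker of LCs was read in 98.5% of the cells, whereas the medians of the other lists lay at 7.77% or below. The LC list holds genes of gated proteins, Epcam among them.

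The transcriptome of the moLCs was headed by antigen presentation on MHC class II. Cd74, the invariant chain that guides MHC class II to the endosome, had the highest mean level with 117540 ± 26563 TPM (SD over cells). H2-Ab1, H2-Eb1 and H2-Aa, which encode chains of the MHC class II molecules I-A and I-E, came at rank 2 with 57959 ± 14217 TPM, rank 4 with 39154 ± 10106 TPM and rank 6 with 22228 ± 5836 TPM. Together these 4 genes took 24.1% of the TPM of the median cell, 0.990% of the lowest and 33.7% of the highest. The proteins of H2-DM, which load the peptides, were encoded at lower levels, with 816 ± 767 TPM for H2-DMa and 1455 ± 1111 TPM for H2-DMb1. Ciita, the master activator of the MHC class II genes, was at 34.3 ± 52.4 TPM and was read in 66% of the cells.

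Cd207 (ENSMUSG00000034783, minus strand of chromosome 6, 83671215 to 83677857 of GRCm38) stood at rank 3 with 42656 ± 25444 TPM. Rank 5 was taken by Il1r2 (ENSMUSG00000026073, plus strand of chromosome 1, 40074079 to 40125231), the decoy receptor that binds interleukin 1 without signalling, with 22280 ± 12233 TPM. Cst3 followed at rank 7 with 17260 ± 13218 TPM, and ferritin light chain (Ftl1) at rank 8 with 10189 ± 7963 TPM. Ranks 9 to 25 held Gm23935 (a gene model of miRNA type whose short length raises its TPM), Tmsb4x, mt-Co1, S100a11, Sqstm1, Mfge8 (6490 ± 4540 TPM), Il1b (6299 ± 8667 TPM), H2-M2, Pgf, Cd83 (5787 ± 4115 TPM), Nfkbia, Syngr2, Tyrobp, H2-D1, Fth1, mt-Rnr2 and Lgals3. Among them, Pgf encodes placental growth factor (6077 ± 5011 TPM), H2-M2 a nonclassical MHC class I protein (6224 ± 5445 TPM), and Cd83 a maturation antigen of dendritic cells. The 25 highest genes held 43% of the mean TPM. In a median cell 35 genes carried 50% of the TPM, with 14 genes in the most concentrated cell and 136 in the least. The order was much the same on both plates: 21 genes were among the 25 highest on both, and across the genes read in at least 50% of the moLCs the Spearman correlation of mean TPM between plates was 0.977 (across genes, which are not independent).

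Across cells the CPM of Cd207 ran from 0 over a median of 23839 to 60426, with 24684 in the median cell of plate 1 and 22978 on plate 2. H2-Ab1 ran from 233 over 58780 to 115912 CPM, Cd74 from 7178 over 79067 to 112667 CPM, and Il1r2 from 0 over 17286 to 44158 CPM. Epcam was read at far fewer reads per cell, from 0 over 633 to 2709 CPM. The cells of plate 2 lay within the range of plate 1 for Cd207 (467 to 51614 CPM), H2-Ab1 (5555 to 84217 CPM), Cd74 (25992 to 106902 CPM) and Epcam (149 to 1895 CPM). For H2-Ab1 and Cd74 this rested on 1 cell of plate 1, described further on, with 233 and 7178 CPM. The next lowest values on plate 1 were 36845 CPM of H2-Ab1 and 45405 CPM of Cd74. The lowest cell of plate 2 in H2-Ab1 was also the lowest in Cd74 and had 3994 CPM of H2-Aa.

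**Figure D2:**
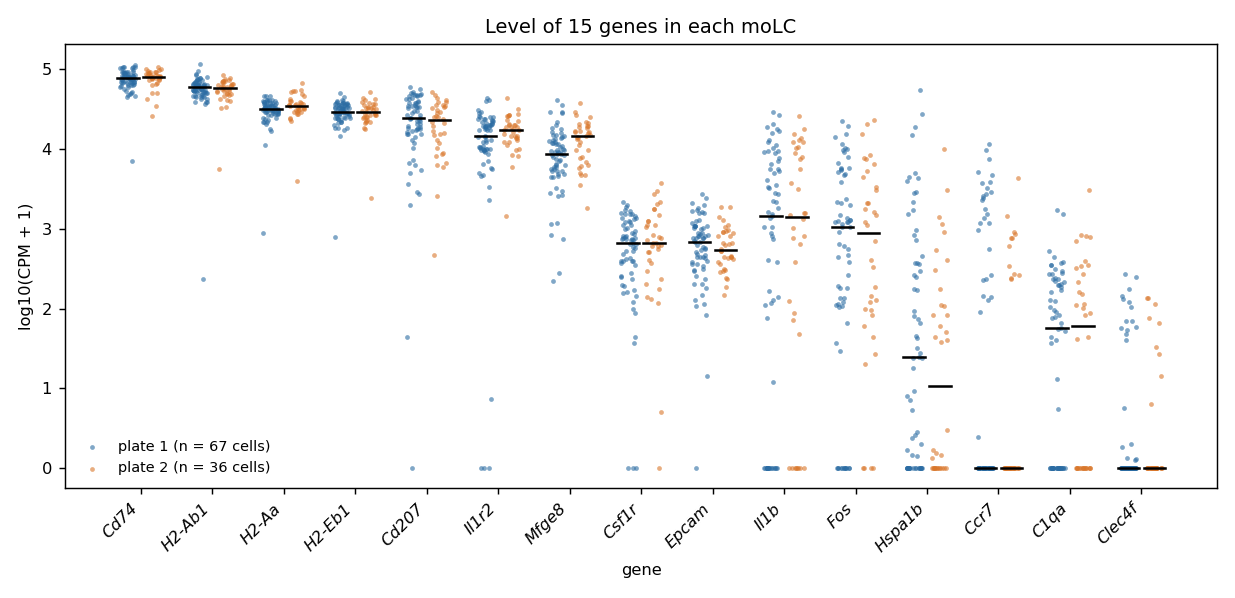
Level of 15 genes in each moLC as log10(CPM + 1), with plate 1 (67 cells) and plate 2 (36 cells) in separate colours and the median of each plate as a black line. The MHC class II genes form narrow bands with single low cells, whereas genes such as Il1b, Fos and Hspa1b reach from 0 to over 10000 CPM.

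Reads in at least 1 moLC were found for 16434 of the 45661 genes listed, in at least 25% of moLCs for 5803, in at least 50% for 3116, in at least 90% for 774 and in every moLC for 220. By function, the reading of genes was uneven within most lists. Of 20 lysosomal genes 16 were read in at least 50% of the cells, with Ctsz (3562 ± 2132 TPM) above Ctsb (453 ± 431 TPM) and Ctsd (85.2 ± 249 TPM). Of 17 C-type lectins 5 reached 50% of the cells. The beta-glucan receptor gene Clec7a was read in 84.5% of them at a median of 895 CPM, and Ly75, which encodes DEC-205, in 96.1% at 305 CPM. Of 20 transcription factors of LC identity 10 reached 50%. Spi1, which encodes PU.1, was read in 97.1% of cells at a median of 644 CPM, Relb in 95.1%, Stat3 in 92.2%, Klf6 in 90.3%, Id2 in 69.9% (60.1 to 78.5%) and Runx3 in 51.5% (41.4 to 61.4%). The last 2 are known to be needed for LCs. Irf4 was read in 31.1% and Zbtb46, a marker of classical dendritic cells, in 19.4%.

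Among receptors for growth factors, those for GM-CSF were read in most cells, Csf2ra in 95.1% and Csf2rb in 97.1%, and Flt3 in 42.7% (33 to 52.8%). The maturation genes Cd83, Cd86 and Cd40 were read in 98.1%, 99% and 98.1% of the moLCs, with medians of 5032, 1444 and 808 CPM. Fscn1, which bundles actin in mature dendritic cells, was read in 1.94% and the checkpoint ligand gene Cd274 in 9.71%. Cdkn1a, which encodes the cell cycle inhibitor p21, was read in 99% of the cells at a median of 1878 CPM. Of the chemokines, Cxcl16 was read in 98.1% at a median of 1741 CPM.

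Cell-to-cell variation was measured as the coefficient of variation (CV, the SD over the mean) of CPM. Since the CV falls with the level, each gene was set against a running median of genes of like mean, and the log2 of its squared CV over that median is called its excess. The genes with a read in 50% or more of the moLCs on both plates, 2889 in number, were kept. Of these, 120 had an excess of at least 1 on each plate and 124 an excess of at most -1 on each plate. The excess of the 2 plates had a Pearson correlation of 0.632 across genes.

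The MHC class II genes were among the most even genes of the moLCs. The CV was 0.238 for Cd74, 0.266 for H2-Ab1, 0.275 for H2-Eb1 and 0.284 for H2-Aa, and all 4 were among the 10 genes with the lowest excess, at -2.92, -2.62, -2.50 and -2.43 (the value nearer 0 of the 2 plates). The other 6 were the processed pseudogenes Oaz1-ps, Gm13456, Gm4202, Gm13493, Eif4a-ps4 and Gm7964, whose reads can come from their parent genes. For the 4 MHC class II genes the running median came from genes of mostly lower mean, so their excess may lie too low. The same holds for Cd207 (CV 0.594) and Il1r2 (0.552), and neither of these passed in either direction. Epcam had a CV of 0.725 and Mfge8 of 0.704, and these did not pass either.

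The least even genes held heat shock, immediate early and chemokine genes beside others of no shared list. Hspa1b, an inducible HSP70 chaperone, had the highest excess (4.35, CV 3.96), and its near-identical neighbour Hspa1a was also among the 5 highest (3.07, CV 3.37). Fos, a subunit of the AP-1 factor, had an excess of 2.5, and Dusp1, a phosphatase that ends MAP kinase signals, of 2.36. Cxcl3 (3.17) and Cxcl2 (2.48) encode neutrophil chemokines. The 15 highest also held Fcgr3, H2-Q4, Prdx1, Myl6b, Tmcc1, Spopl, Gem, Ifitm3 and Nfkbid. Of these, Fcgr3, H2-Q4, Myl6b, Spopl and Ifitm3 had a median below 1 CPM, which is a few reads per cell. The median of Cxcl3 was as low, at 1.03 CPM. Of 21 immediate early genes 15 were read in enough cells to be kept and 8 of these passed as highly variable, as did 3 of the 11 heat shock genes kept out of 13. Of 20 transcription factors 10 were kept and 4 passed (Id2, Irf8, Klf4 and Klf6), and of 23 genes of monocytes and macrophages 9 were kept and 4 passed. Over all genes kept 120 of 2889 passed.

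Values in the cells show how wide these ranges were. Hspa1b ran from 0 over a median of 23.8 to 55660 CPM, and 5 cells exceeded 10000 CPM. The cell with the most held 32.7% of its summed CPM and also had 34719 CPM of Hspa1a. This cell had no Il1r2 read, nor had the cell with 14979 CPM of Hspa1b. The cell with 27216 CPM of Hspa1b had 6.39 CPM of Il1r2. The cells with 18857 and 10005 CPM of Hspa1b had 5672 and 18849 CPM of Il1r2. Fos ran from 0 over 1058 to 23268 CPM, with 10 cells over 10000 CPM, and its medians on the plates were 1058 and 914 CPM. Il1b, the inflammatory cytokine that Il1r2 binds, ran from 0 over 1433 to 29368 CPM. It was read in 77 cells (74.8%, 65.2 to 82.8%), and 20 cells exceeded 10000 CPM. Tnf ran from 0 over 196 to 4920 CPM and Prdx1, a peroxiredoxin, from 0 over 542 to 18277 CPM. The upper ends of Fos and Il1b were alike on the 2 plates (22439 and 23268 CPM, 29368 and 26069 CPM), whereas that of Hspa1b was 55660 CPM on plate 1 and 10005 CPM on plate 2. The cells had been released from skin and sorted before lysis, and the part of this handling in the stress and immediate early values was not tested.

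**Figure D3:**
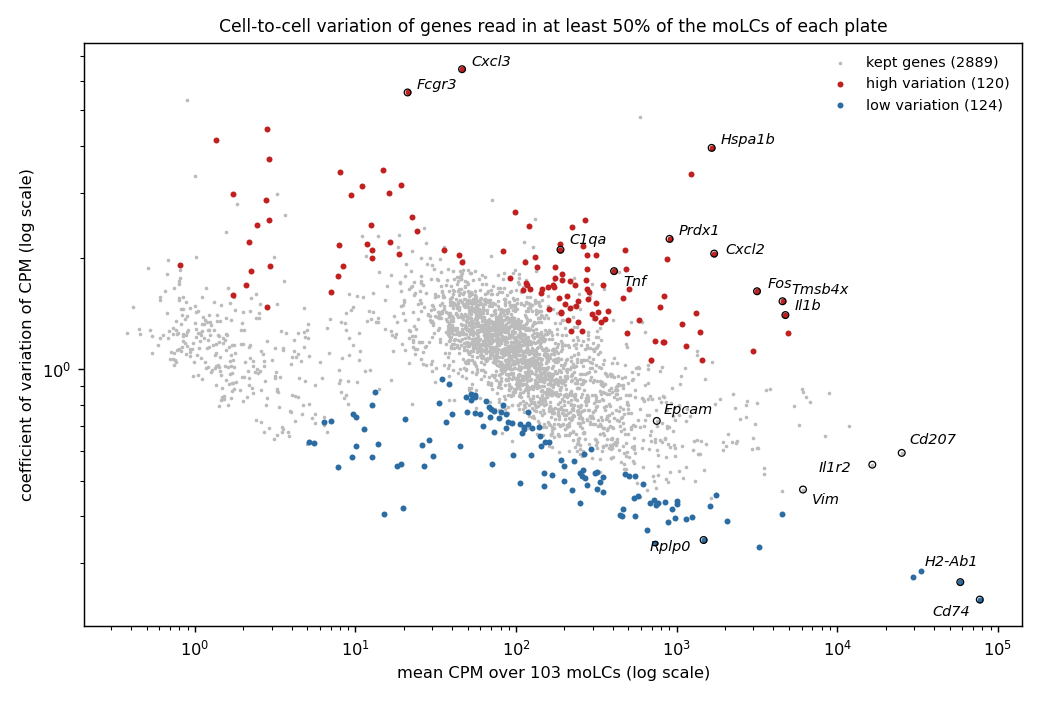
CV of CPM over the moLCs against mean CPM, both on log axes, for the 2889 genes kept, with the 120 genes of high variation in red, the 124 of low variation in blue and the others in grey. The MHC class II genes lie far below the other genes of high mean, and Hspa1b and Fos above them.

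The promoters of 4 of these genes, all on chromosome 17, are shown because they stand for the 2 ends of this range, H2-Aa and H2-Eb1 among the most even genes and Hspa1a and Hspa1b among the least even. Each runs 5′ to 3′ from 250 bases before the start of the RefSeq gene to 50 after it (RefSeq, GRCm38.p6). They are H2-Aa at chr17:34287774-34288073 (minus strand), H2-Eb1 at chr17:34305617-34305916 (plus strand), Hspa1a at chr17:34972107-34972406 (minus strand) and Hspa1b at chr17:34959189-34959488 (minus strand). Capitals mark matches to 2 motifs searched on both strands, the Y box CTGATTGG of MHC class II promoters, which holds an inverted CCAAT box, and GAANNTTC, a pair of facing units of the heat shock element.
H2-Aa: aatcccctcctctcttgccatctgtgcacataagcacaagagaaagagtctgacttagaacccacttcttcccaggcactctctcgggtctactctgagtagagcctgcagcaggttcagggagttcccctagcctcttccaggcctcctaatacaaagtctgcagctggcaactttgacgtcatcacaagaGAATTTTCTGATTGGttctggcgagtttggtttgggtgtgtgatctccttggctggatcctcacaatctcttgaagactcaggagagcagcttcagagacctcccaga
H2-Eb1: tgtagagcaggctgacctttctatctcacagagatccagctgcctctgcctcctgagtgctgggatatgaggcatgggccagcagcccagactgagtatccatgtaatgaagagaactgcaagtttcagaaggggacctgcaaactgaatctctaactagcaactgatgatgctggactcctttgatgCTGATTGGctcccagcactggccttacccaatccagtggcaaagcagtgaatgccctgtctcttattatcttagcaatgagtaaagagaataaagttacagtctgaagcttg
Hspa1a: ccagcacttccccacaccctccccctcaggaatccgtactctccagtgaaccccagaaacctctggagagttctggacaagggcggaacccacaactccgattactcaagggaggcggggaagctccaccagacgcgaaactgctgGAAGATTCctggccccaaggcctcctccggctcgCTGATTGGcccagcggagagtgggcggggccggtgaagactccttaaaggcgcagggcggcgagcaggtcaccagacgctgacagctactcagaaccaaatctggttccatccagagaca
Hspa1b: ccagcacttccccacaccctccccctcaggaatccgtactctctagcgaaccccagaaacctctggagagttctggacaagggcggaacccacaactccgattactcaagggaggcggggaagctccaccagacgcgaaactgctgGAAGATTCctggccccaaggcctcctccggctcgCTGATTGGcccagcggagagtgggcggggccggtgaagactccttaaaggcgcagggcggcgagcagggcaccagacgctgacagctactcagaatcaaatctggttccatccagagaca

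The Y box was found in all 4 promoters, from -51 in H2-Aa, -62 in H2-Eb1 and -70 in both Hspa1a and Hspa1b, counted from the start. Of 32851 promoters of the same length 1346 (4.10%) held it. The second motif was found from -104 in Hspa1a and Hspa1b and from -58 in H2-Aa, where its last base is the first of the Y box, and in 2582 promoters (7.86%) in all. The promoters of Hspa1a and Hspa1b differed at 4 of 300 bases and those of H2-Aa and H2-Eb1 at 238. The transcripts of Hspa1a and Hspa1b share 67.7% of their stretches of 31 bases, so reads could be assigned to the wrong one of the pair.

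Genes that went together across cells were found by Spearman's rho of CPM, computed on each plate for 4171716 pairs of the 2889 genes. The cells share an amplification protocol and differ in depth, and the values are a description with no test. The median rho of all pairs was 0.0170 on plate 1 and 0.00979 on plate 2. A rho of at least 0.5 on each plate was found for 602 pairs and of at most -0.5 for 16. Of the 602, 239 shared a stretch of 31 bases between their transcripts or overlapped in the genome, such as Rps19-ps1 and Rps19-ps2, Ftl1 and Ftl1-ps1, Actg1 and Gm12715, Cd63 and Cd63-ps or Hspa1a and Hspa1b. Of the 15 highest pairs 14 were of this kind, and the other was Gm23935 and Lars2. The other 363 pairs shared no such stretch, and 281 of them kept a rho of at least 0.5 when the number of genes read per cell was held constant.

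The 363 pairs linked 195 genes into 17 groups. The biggest group, of 118 genes, held 47 genes with names starting with Rpl or Rps, of which Rpl37rt, Rps19-ps1 and Rps19-ps2 are pseudogenes, 12 mitochondrial transcripts and 14 genes of the respiratory chain and ATP synthase, with pairs such as Rpl37 and Rpl37a at 0.71 (the smaller rho of the 2 plates). Its genes had short transcripts, with a median exon length of 1363 bases against 3511 for all genes kept. The second group, of 37 genes, held 16 of the listed immediate early and heat shock genes, among them Fos, Jun, Junb, Dusp1, Ier2, Zfp36, Hspa1a, Hspa1b and Hspa8. It also held Atf4, Ddit3 and Ppp1r15a of the integrated stress response, and Atf4 and Ifrd1 had a rho of 0.72. The third held Hsp90b1, Pdia3, Pdia6, Creld2, Dnajc3, Manf and Sdf2l1, 7 genes whose proteins work in the endoplasmic reticulum, most of them in protein folding, and Manf and Pdia3 had a rho of 0.68.

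The fourth group was Cd74, H2-Aa, H2-Ab1 and H2-Eb1. These pairs were not equally close. The rho was 0.708 on plate 1 and 0.759 on plate 2 for H2-Aa and H2-Eb1, 0.574 and 0.554 for Cd74 and H2-Ab1, and 0.540 and 0.662 for H2-Ab1 and H2-Eb1. It was lower for Cd74 and H2-Aa (0.451 and 0.175) and for Cd74 and H2-Eb1 (0.493 and 0.278), which did not reach 0.5 on either plate. Ciita did not go with them in a steady way, with a rho against H2-Ab1 of -0.187 on plate 1 and 0.314 on plate 2. H2-DMa and H2-DMb1 formed a pair of their own (0.638 and 0.578). Fcer1g and Tyrobp, which encode signalling adaptors of the same kind, formed another. Over all 11 genes of the MHC class II list that were kept, the median rho was 0.134, against 0.336 for the immediate early list, 0.285 for the heat shock list, 0.0463 for the LC markers and 0.0150 for all pairs. On plates 1 and 2 the median was 0.101 and 0.139 for MHC class II and 0.373 and 0.305 for immediate early genes. For heat shock genes it was 0.329 and 0.159, so on plate 2 it lay close to that of MHC class II.

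Cd207 was linked to 1 gene, Il1r2. Their rho was 0.531 on plate 1 and 0.678 on plate 2. The next highest with Cd207, by the smaller value of the 2 plates, were Serpinb9 (0.48), a granzyme B inhibitor, H2-Aa (0.47), Tnfrsf9 (0.46), which encodes the costimulatory receptor 4-1BB, and Smox (0.43), a spermine oxidase. At the other end were Plp2 (-0.51), Gm6498 (-0.43) and Phb2 (-0.43). Plp2 also ran against Il1r2 (-0.545 and -0.572), as did Ptprc, which encodes CD45 (-0.547 and -0.512). Epcam, the other defining gene of LCs, was lower in cells with more Cd207, with a rho of -0.332 on plate 1 and -0.467 on plate 2, but the Pearson correlation of log2(CPM + 1) was -0.0987. Its highest partners were H2-DMb1 (0.42) and Scimp (0.41), which encodes an adaptor that binds MHC class II.

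The other anchor genes had partners of lower rho. For Mfge8 the highest were Cyfip1 (0.46) and Ikbkb (0.43), for Csf1r Laptm5 (0.49) and Mfge8 (0.34), for the costimulatory gene Cd86 Smox (0.47), Il1r2 (0.46) and Ly75 (0.39), and for H2-Ab1, beyond the other class II genes, H2-M2 (0.44) and the tetraspanin gene Cd9 (0.33). Fos ranked with Dusp2 (0.56), Hspa1b (0.52), Jun (0.52), Zfp36 (0.51) and Ier2 (0.51). Lyz2 was read in too few cells to be among the genes kept and was given no list of partners.

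**Figure D4:**
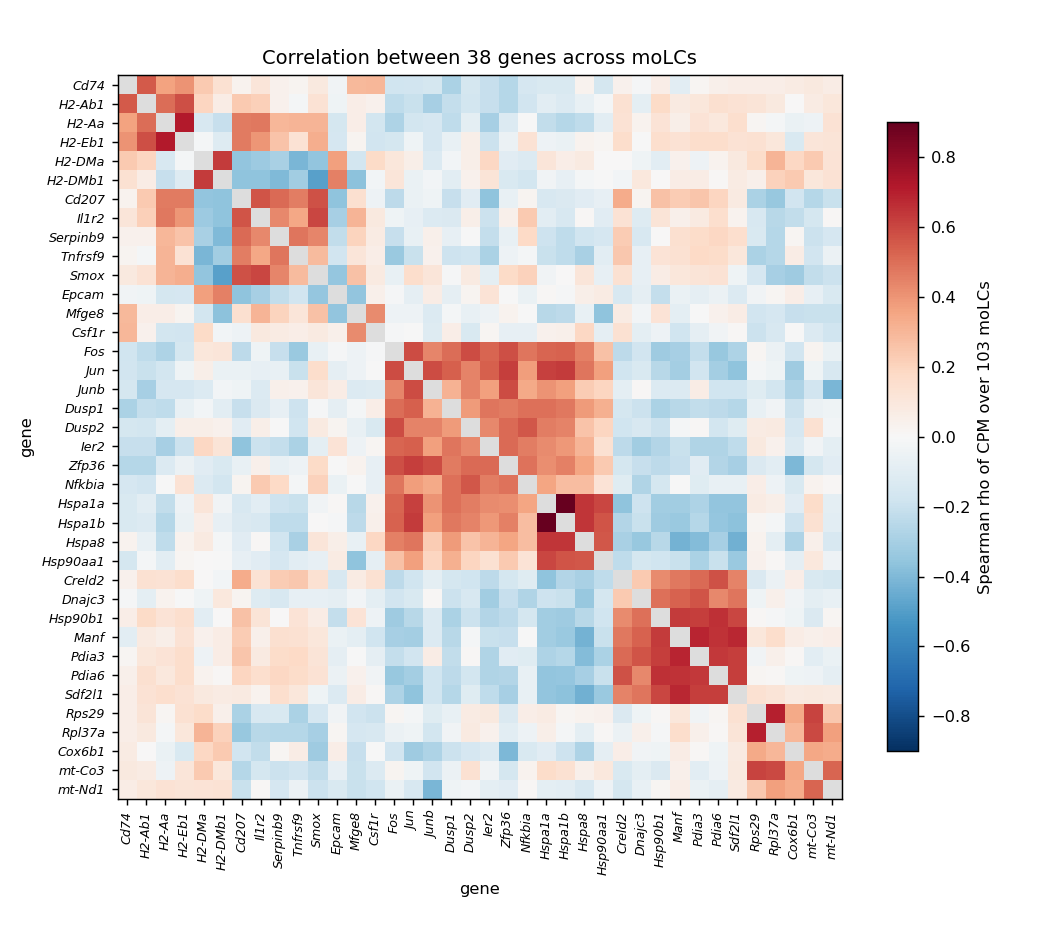
Spearman's rho of CPM over the moLCs of both plates between 38 genes, some of them chosen after their values were seen, from negative in blue to positive in red, with the diagonal in grey. Blocks stand out for the MHC class II genes, the immediate early and heat shock genes and the genes of the endoplasmic reticulum, and Cd207 is red with Il1r2 and blue with Epcam.

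The first 3 principal components of the scaled log values held 7.42%, 3.81% and 3.11% of the variance. The first ran from Atp5k and Cox6b1 of the respiratory chain and ATP synthase, Rpl41 of the ribosome and the copper chaperone gene Atox1 to Sqstm1, Ndrg1, Ifrd1 and Slc3a2. It moved with the reads of a cell (rho -0.486), its mitochondrial share (0.560) and Cd207 (-0.461). Its mean score was -1.87 on plate 1 and 3.49 on plate 2. The highest scores, 66.7 and 58.9, were those of the plate 2 cells with more than 2.5% mitochondrial reads. The positive mean of plate 2 rested largely on these cells. Without these cells the first component held 5.79% of the variance. The second ran from actin genes (Actg1, Tpm3, Cfl1, Pfn1) to Hspa1a, Hspa1b, Hsp90aa1 and Hsp90ab1, and moved with the number of genes read (0.749). The third ran from Bcl2a1b, Bcl2a1d, Il1r2 and Tnfrsf9 to genes such as Ctsb, a lysosomal protease, and Alox5, a lipoxygenase. It moved with Cd207 (0.607) and little with reads (-0.0183), genes read (-0.153) or mitochondrial share (-0.0560). Its highest scores, 32.1 and 23.9, were those of plate 2 cells with 3.39% and 2.43% mitochondrial reads. The lowest, -35.9, -25.7 and -25.6, were those of the cells with 14979, 27216 and 55660 CPM of Hspa1b.

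Some genes were at high levels in a part of the moLCs and not read in the rest. Among 4725 genes read in 10% to 50% of the cells of each plate, Ccr7 (ENSMUSG00000037944, minus strand of chromosome 11, 99144196 to 99155077), the receptor that guides LCs to lymph nodes, had the highest median where it was read, 1079 CPM in 40 cells (38.8%, 29.4 to 48.9%). The highest cell had 11689 CPM and held 14% of the sum, and 20 cells exceeded 1000 CPM. Next came the phosphatidylserine receptor gene Timd4 (405 CPM in 21 cells), Mmp12, which encodes macrophage elastase (286 CPM in 28 cells), the chemokine gene Ccl22 (263 CPM in 37 cells), and Il4i1, an amino acid oxidase (256 CPM in 32 cells). Ramp3, Capg, Ivd, Rab7b, Osgin1, Egr1, Lyz2, Spp1, Ccrl2 and Nceh1 completed the 15. Of these genes Ccr7, Ccl22 and Il4i1 belong to the migration and maturation list.

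The cells with Ccr7 reads were not set apart in Cd207, whose median was 24307 CPM with a Ccr7 read and 23784 CPM without. A Ccl22 read was found in 20 of the 40 cells with Ccr7 and in 17 of the 63 cells without it. The rho of Ccr7 was 0.377 on plate 1 and 0.260 on plate 2 with Ccl22, 0.292 and 0.445 with Il4i1, and 0.0270 and 0.120 with Cd86. The complement genes C1qa, C1qb and C1qc had rho between 0.336 and 0.841 on the plates. All 3 were read in 21 moLCs, 2 in 23, 1 in 26 and none in 33. C1qa did not go with Cd207 (0.138 and 0.0212) or with Lyz2 (-0.0212 and 0.178).

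A few cells stood far from the others in cell cycle genes or in Cd207. In 6 moLCs, 4 on plate 1 and 2 on plate 2, between 13 and 20 of 20 genes of G2 and mitosis were read, together with at least 12 of 20 S phase genes. In the other 97 cells at most 5 and a median of 1 of the mitotic genes were read, and at most 7 S phase genes. These 6 cells had more genes read (a median of 5600.5 against 3975). Mki67 alone did not mark them, as it was read in 58.8% of the other cells at a median of 7.91 CPM. Cd207 in the 6 was 42.6, 467, 5987, 17707, 28005 and 46500 CPM, so 2 of them were among the 3 moLCs under 1000 CPM. The lowest of the other 100 moLCs had 2000 CPM.

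The third cell under 1000 CPM, on plate 1, had no read of Cd207 or Il1r2, and 7178 CPM of Cd74 and 233 CPM of H2-Ab1, the lowest of all moLCs in both. It had 9601 CPM of Ccr7, 43178 CPM of Ccl22, 31481 CPM of Ccl17 and 964 CPM of Fscn1, genes of migrating mature dendritic cells, and held 58.6% of all Ccl22 and 74.4% of all Ccl17 CPM. Of other genes of the migration and maturation list, Cd83 was at 5365 CPM and Cd40 at 1325 CPM, but Cd86 had no read. The cell also had 3553 CPM of Pf4, a gene of the dermal macrophage list. Of the 2 cells with mitotic genes and little Cd207, that of plate 2 had 7202 CPM of C1qb and 3481 CPM of Apoe, which encodes apolipoprotein E, the highest levels of both among the moLCs. That of plate 1 had 8654 CPM of Ccl17, 1187 CPM of Ccr7 and 46200 CPM of Cd74. It also had 172 CPM of Xcr1, a gene of the dermal type 1 dendritic cell list, the highest level among the moLCs. Epcam was read in all 3, at 112, 1077 and 1303 CPM. Whether these cells were LCs was not tested. The counts given above without these 3 cells, and without the 6, stand with the alternatives in the closing section.

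**Figure D5:**
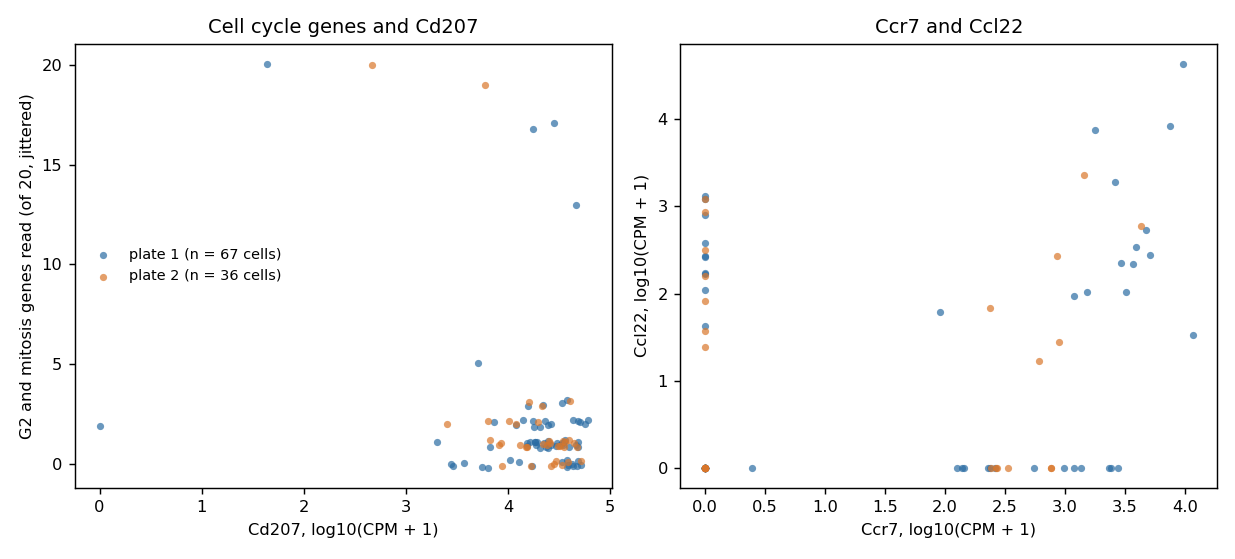
Left, number of 20 genes of G2 and mitosis read (jittered) against Cd207 as log10(CPM + 1), and right, Ccl22 against Ccr7 as log10(CPM + 1), each point 1 moLC, coloured by plate. At the left 6 cells lie at 13 genes or more, far above the others at 5 or fewer, and 3 cells lie below 1000 CPM of Cd207, and at the right the 40 cells with Ccr7 have Ccl22 at 0 in 20.

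The 2 plates were compared as a check. Mean CPM differed at least 2-fold between the moLCs of plate 2 and plate 1 (1 CPM added to each mean) for 556 of the 6507 genes that 25% or more of the cells of 1 plate had a read of (8.54%), of which 291 were higher on plate 2 and 265 on plate 1. None of 17 LC markers compared was past 2-fold, and 29 of 232 listed genes were. Among the latter, the log2 ratio of plate 2 over plate 1 was -2.68 for Hspa1a, -2.13 for Hspa1b, -2.11 for Il1rn, -1.82 for Ccr7 and -2.61 for Ccl22, which were higher on plate 1. It was 1.76 for C1qb, 1.59 for C1qc and 1.48 for Timd4, which were higher on plate 2. Single cells with a high level, named above for Hspa1b, Ccl22 and C1qb, enter these means. Animal, day and handling were not given for the plates, so their parts in these differences cannot be told apart.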

How the data were processed

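Of 106 moLCs 103 passed the mitochondrial filter. Single epidermal cells were sorted into Smart-Seq lysis buffer, and paired-end reads were aligned by the authors to mm10 with STAR. The counting tool and annotation were not given in the sources used here. The deposited values are read counts per gene, without normalization, and 9 values that were not whole were handled like estimated counts of the deposited table and rounded. Of the deposited counts above 0, 82.7% were even.

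TPM used exon lengths of GENCODE M21, in which 45392 of 45661 gene names occurred once. CPM, CV, excess, Spearman's rho and components were computed in Python 3.11.15 (numpy 2.4.6, scipy 1.17.1, pandas 2.3.3) with a running median over 101 genes and the thresholds given beside each result, and checked on simulated data with known answers. Cells are not replicates, and no test was run. Some items are not reported here. No doublet caller was run on the singly sorted cells.

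Members and gene lists were chosen with earlier results of these data known. Genes were named as list members, as the 25 highest by TPM, the 15 most and 10 least variable, the 15 highest pairs and 5 partners of each anchor gene, 8 loadings at each end of a component, and the 15 highest among genes read in 10% to 50% of cells. All linked groups, pairs without shared sequence, negative pairs and single cells were chosen after their values were seen. Alternatives were other filters, scalings, thresholds and each plate alone. Leaving out 3 or 6 cells and the check for shared stretches of 31 bases were added after seeing the data.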

Additional observations from a re-analysis of the deposited data

Results flagged for a closer look

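The 3 moLCs left out by the mitochondrial filter, all of plate 2, were looked at because no comparison above used them. They had 9.97% of 572708 reads, 14% of 233438 reads and 29.3% of 920430 reads on mitochondrial genes. The first 2 had no Cd207 read, and the third had 23.9 CPM of Cd207 with 7513 CPM of Cd74 and 2.17 CPM of Epcam. The langerin signal of this cell lay outside the main measurement and below all moLCs kept but the 1 with no Cd207 read. Its source was not tested.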

How the results depend on the processing

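Of 165 values recomputed under alternatives 149 stayed within the limits set and 16 moved. The limit was the SD over cells for reads, genes read and mean TPM, and the SD over gene pairs for the median rho of a list. A single rho was given an approximate standard error, and counts and the share of variance a set ratio. These limits are wide: the heat shock median of 0.159 on plate 2 counted as unmoved from 0.285. Only values of rho could change sign, and none did. Counts that ask for the threshold on 1 plate in place of 2 rose by construction, to 260 genes of high and 301 of low variation and 1796 pairs with plate 1 alone, and to 312, 271 and 22992 with plate 2 alone, which has 36 cells. Genes read in at least 75% of cells gave 52 of high and 62 of low variation, and the variance of log values gave 256 of low variation. A threshold of 0.6 left 196 pairs, and the pairs without shared sequence, chosen after seeing the data, numbered 363. The rho of Cd207 and Il1r2 was 0.678 on plate 2. That of Cd207 and Epcam was -0.467 on plate 2, -0.250 with the 3 left-out moLCs added and -0.0987 as Pearson's r of log values, so its size rests on the measure. The causes of these last moves were not tested. Thinning gave 2190485 reads in each of 92 moLCs, with 11 shallower cells left out. Without the 3 moLCs under 1000 CPM of Cd207 there were 113 genes of high and 127 of low variation, 482 pairs and 517 genes past 2-fold between plates, and without the 6 with mitotic genes there were 12.5% fewer genes of high variation, 125 of low variation, 580 pairs and 522 genes past 2-fold, all within the limits set. All 25 of the highest genes stayed among the 25 highest in both cases. With at least 10 reads required, 2626 genes in place of 3116 were read in at least 50% of the moLCs. No paired analysis was possible because the result comes from no test and the cells carry no pairing.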

Other observations

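Several groups of genes with no part in the account above were read in few moLCs. Of 21 interferon-stimulated genes 9 were never read and 1 passed 50% of the cells, Ifitm3, with a median of 0.776 CPM. Isg15 was read in 8.74% (4.07 to 15.9%). Of 16 genes of Toll-like receptors and their adaptors 2 passed 50%, one of them Myd88 in 61.2% of cells, while Tlr2 was read in 23.3% (15.5 to 32.7%), Tlr4 in 1 cell and Tlr3 and Tlr7 in none, which allows a share of up to 3.52%. Il6 and Il12b were read in no cell, and Il18 in 87.4% at a median of 246 CPM. The chemokine receptor gene Ccr6 and the growth factor gene Csf1 were not read in any cell either.

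TGF-beta signals hold LCs in the epidermis, and 4 of 22 genes of this pathway were read in at least 50% of the moLCs. The ligand gene Tgfb1 was read in 77.7% (68.4 to 85.3%) at a median of 24.9 CPM and the inhibitor gene Skil in 83.5% at 118 CPM. The receptor genes Tgfbr1 and Tgfbr2 were read in 53.4% (43.3 to 63.3%) and 13.6% (7.63 to 21.8%), and the mediator genes Smad2 and Smad4 in 52.4% and 46.6%. The anti-apoptotic genes Mcl1, Bcl2a1b and Bcl2a1d were read in 98.1%, 99% and 97.1% of the cells. Of the genes of lipid mediators, Alox5ap was read in 97.1%, Alox5 in 85.4% and Ptgs1 in 83.5%, against 6.80% for Ptgs2.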
